A study of Homo sapiens with 11 samples.

Results

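Chemokines and interleukins are the secreted signals with which cells call in and instruct leukocytes, and 80 of their ligand genes were found among the 57815 genes listed for each RNA library. They were chosen by gene name alone: CCL and CXCL genes with a number, CX3CL1, XCL1, XCL2, and IL genes with a number and at most 1 further letter, with receptor names left out. The set holds 24 CC chemokines, 13 CXC chemokines, 3 CX3C and XC chemokines and 40 interleukins, and interleukin 8, whose present symbol is CXCL8, is listed as IL8 and counted with the interleukins. The study set human small cell lung carcinoma lines beside a noncancerous lung fibroblast line, with RNA sequencing for gene levels and Hi-C, a genome-wide map of DNA contacts, for chromatin folding. RNA libraries came from DMS153 (3 libraries) and H209 (2 libraries), both small cell lung carcinoma lines, and from MRC5 (3 libraries), the noncancerous lung fibroblasts, and Hi-C from 1 library of each line. No treatment, time course or engineered allele is named in the labels. Each kind of cell is represented by established lines, and MRC5 alone stands for normal lung, so tissue of origin, disease state and line cannot be told apart. The labels do not say that libraries of a line came from separate cultures, so the errors below measure the spread between libraries, which may be technical.

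Chemokines bind G protein-coupled receptors on leukocytes and set up the gradients along which these cells move. Interleukins bind receptor chains that signal through JAK-STAT or NF-kappaB, and many pair with a shared chain, such as the IL6ST chain that interleukin 6 and interleukin 11 use. Lung fibroblasts are known to secrete CCL2, interleukin 6 and interleukin 8 after injury or inflammatory signals, and small cell lung carcinoma, a neuroendocrine tumour, is known for few infiltrating leukocytes and for its receptor CXCR4.

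Sequences just before the start sites of 6 members are shown because near copies and neighbours on chromosome 4 share these letters while their levels differed between the lines. CXCL1, CXCL2 and CXCL3 are near copies, IL8 (CXCL8) lies in the same gene cluster, CXCL10 lies in a separate chromosome 4 cluster, and IL6 lies on chromosome 7. All but IL6 were chosen for printing after their values had been seen. Each run is the 150 bases before the RefSeq start site on the gene's own strand, in GRCh38.p14, and capitals mark matches on either strand to GGNNNTTCC, letters that many NF-kappaB binding sites share. The windows are chr4:73869243-73869392 (plus strand) for CXCL1, chr4:74099196-74099345 (minus) for CXCL2, chr4:74038690-74038839 (minus) for CXCL3, chr4:73740419-73740568 (plus) for CXCL8, chr7:22727050-22727199 (plus) for IL6 and chr4:76023498-76023647 (minus) for CXCL10.
CXCL1: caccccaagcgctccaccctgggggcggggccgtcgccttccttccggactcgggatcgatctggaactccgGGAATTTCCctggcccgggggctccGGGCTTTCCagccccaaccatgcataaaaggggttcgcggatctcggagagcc
CXCL2: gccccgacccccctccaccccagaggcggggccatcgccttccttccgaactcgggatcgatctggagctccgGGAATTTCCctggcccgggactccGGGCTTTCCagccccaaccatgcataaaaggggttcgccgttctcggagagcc
CXCL3: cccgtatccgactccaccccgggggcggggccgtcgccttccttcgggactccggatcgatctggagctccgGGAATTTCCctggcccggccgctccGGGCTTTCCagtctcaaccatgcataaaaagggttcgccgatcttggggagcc
CXCL8: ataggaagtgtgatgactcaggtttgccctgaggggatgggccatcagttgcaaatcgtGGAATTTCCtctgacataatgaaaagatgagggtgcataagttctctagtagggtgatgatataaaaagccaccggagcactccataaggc
IL6: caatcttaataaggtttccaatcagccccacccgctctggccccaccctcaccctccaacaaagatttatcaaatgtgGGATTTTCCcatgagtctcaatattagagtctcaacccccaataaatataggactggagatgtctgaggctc
CXCL10: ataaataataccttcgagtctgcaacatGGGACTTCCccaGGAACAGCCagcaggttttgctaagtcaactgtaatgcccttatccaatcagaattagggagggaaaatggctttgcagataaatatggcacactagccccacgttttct
CXCL1, CXCL2 and CXCL3 each held 2 matches in nearly the same places, GGAATTTCC at -78 to -70 in CXCL1 and CXCL3 and at -77 to -69 in CXCL2, and GGGCTTTCC at -53 to -45 in all of these. CXCL8 held GGAATTTCC at -91 to -83, and IL6 held GGATTTTCC at -72 to -64. CXCL10 held GGGACTTCC at -122 to -114 and a match on the opposite strand at -110 to -102. By alignment, CXCL1 was 88.7% identical to CXCL2 and 88.1% identical to CXCL3 in these windows, whereas the other pairs, apart from CXCL2 with CXCL3 at 86.1%, were 39.7% to 49.1% identical. The motif stood within 250 bases before the start in 20 of the 58 members that have an entry (34.48%), in 8 of 16 expressed members that have one, and in 6012 of all 35116 entries (17.12%). Members were scored over all entries of a gene and the last share over single entries, so the shares are not in like units. Near copies such as CXCL1, CXCL2 and CXCL3 were each counted. A match describes the letters and is not a measured binding site.

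Levels are FPKM, fragments scaled to transcript length and to the mapped fragments of the library, as deposited. The 9 neuroendocrine marker genes of a fixed list all had a mean of at least 1 FPKM in DMS153 and in H209 and none did in MRC5, and all 10 fibroblast markers did in MRC5, against 2 in each carcinoma line. Read counts were not used here, and the number of genes at 1 FPKM or more ran from 13425 to 16580 per library. In DMS153, 39.9% to 44.1% of the summed FPKM lay in microRNA loci, against at most 0.045% in the other lines. The median log2 difference of all tested genes was 0.44 for DMS153 and 0.46 for H209 against MRC5, and lay at -0.00014 and 0 when libraries were scaled by the median ratio, so a member that moved with the bulk of genes has a difference near those values. For member values of at least 1 FPKM, the deposited confidence interval reached a median of 8.90% to 16.4% of the value to either side, depending on the library.

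Most of the 80 ligands were near silent in all 3 lines. With a mean of at least 1 FPKM as the mark of expression, 8 members were expressed in DMS153 (10.0%), 11 in H209 (13.75%) and 12 in MRC5 (15.0%), where the same mark was passed by 28.7%, 27.7% and 23.3% of all listed genes. After TPM scaling the H209 count was 18 and that of MRC5 15. Median ratio scaling instead lowers H209 values, divided by 1.29 to 1.30, and raises those of MRC5, divided by 0.762 to 0.774. Means near the mark as deposited included CCL2 (1.08), CXCL14 (1.11) and CXCL3 (1.15) in H209. In MRC5 they included CXCL3 (0.786) and CXCL12 (0.838). For such members, the lines listed below as expressing them depend on the scaling. In all, 22 members were expressed in at least 1 line, 11 of them chemokines and 11 interleukins. H209 expressed 5 CXC chemokines, both XC chemokines and 1 CC chemokine, and DMS153 expressed 2 CC, 2 CXC and 1 XC chemokine, each beside 3 interleukins. MRC5 expressed 9 interleukins and 3 chemokines. CCL2, CXCL16 and IL17D were expressed in all lines, IL23A and XCL1 in both carcinoma lines, and IL16 in DMS153 and MRC5. Only DMS153 passed the mark for CCL28 and CXCL12, only H209 for CXCL1, CXCL2, CXCL3, CXCL14, IL17C and XCL2, and only MRC5 for CXCL10, IL6, IL8, IL11, IL12A, IL15, IL32 and IL34. Of the 58 members under the mark, 2 were listed at 0 in every library, 34 more stayed under 0.1 FPKM in every library, and the highest value was 0.942 FPKM, for CCL20 in an H209 library.

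**Figure D1:**
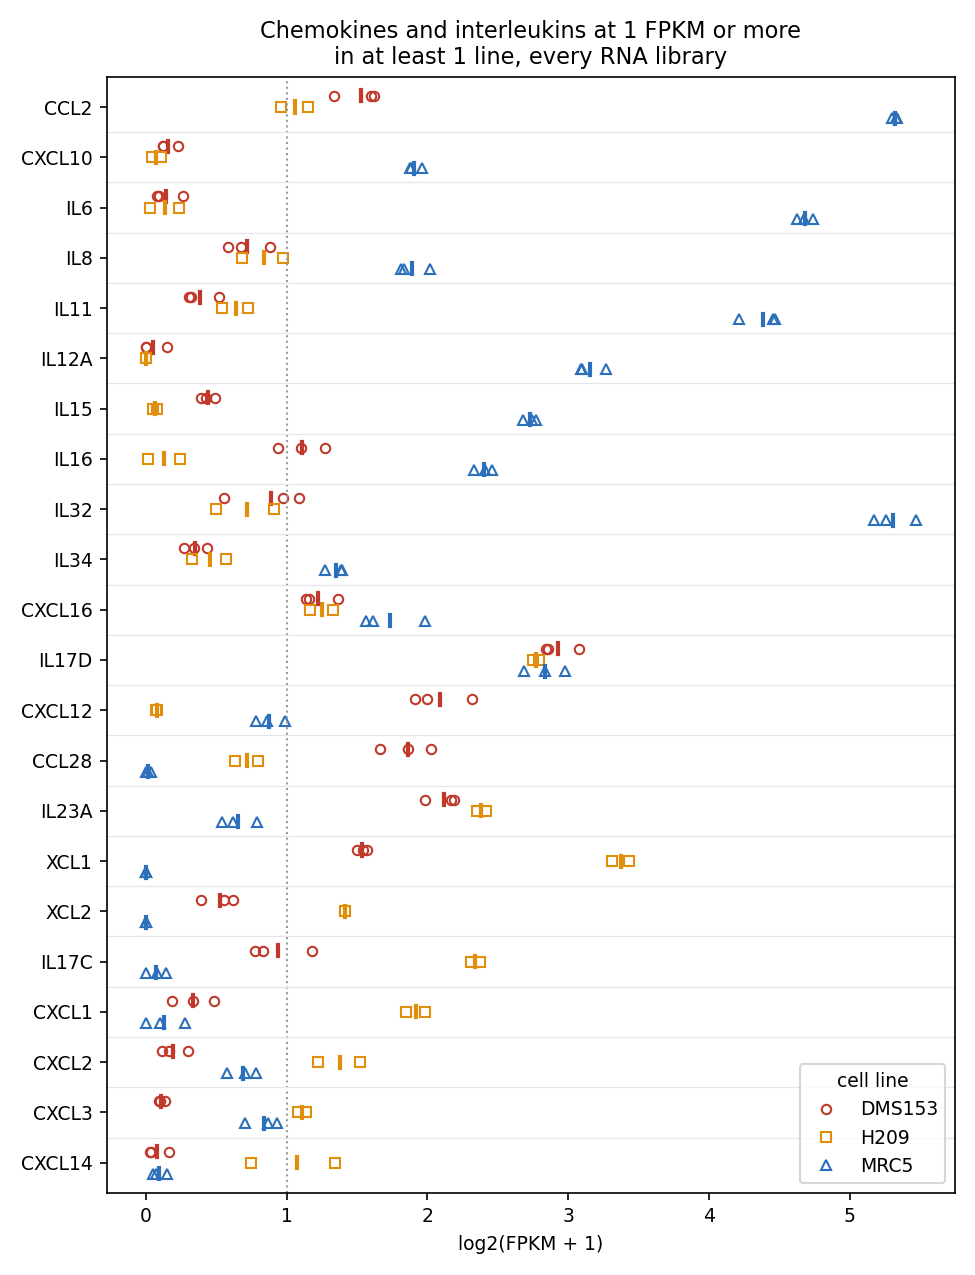
FPKM of the 22 expressed members in each RNA library, with circles for DMS153 (3), squares for H209 (2) and triangles for MRC5 (3) on the log2(FPKM + 1) axis, short bars at the line means and the dotted line at the value of 1 FPKM. CCL2, IL6, IL11 and IL32 in MRC5 lie far to the right of every carcinoma library, and XCL1 is highest in H209.

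Summed over members, the fibroblasts carried the most ligand message. Interleukin levels summed to 113 ± 6.60 FPKM (SD, n = 3) in MRC5, 18.8 ± 0.959 (n = 2) in H209 and 16.0 ± 0.922 (n = 3) in DMS153. Chemokine levels summed to 47.5 ± 0.970 FPKM in MRC5, 24.1 ± 0.515 in H209 and 13.3 ± 0.564 in DMS153. In MRC5 the chemokine sum was nearly all CCL2, at 81.25% to 82.7% of it per library, and IL32 made up 32.9% to 36.2% of the interleukin sum. In H209, XCL1 was 36.4% and 41.3% of the chemokine sum, and in DMS153 IL17D was 39.2% to 43.8% of the interleukin sum. The leading ligands ranked higher in MRC5 than in the carcinoma lines. Among genes at 1 FPKM or more, CCL2 and IL32 stood at percentiles 82.3 and 82.1 in MRC5. XCL1 stood at 47.1 in H209 and IL17D at 40.6 in DMS153.

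Leukocytes also make many of these ligands, and their markers were read beside these sums. Of 16 immune markers, 1 had a mean of 1 FPKM or more in each line, CD68 in MRC5 and CD79A in the carcinoma lines, and the summed level was 3.53 to 5.24 FPKM in DMS153, 3.35 to 3.80 in H209 and 23.3 to 35.1 in MRC5. PTPRC, the antigen found on all leukocytes, had mean FPKM of 0.0211 (DMS153), 0.0247 (H209) and 0.0210 (MRC5).

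Differences were tested with limma on log2(FPKM + 1) over the 19066 genes that reached 1 FPKM in at least 2 libraries, and calls needed an adjusted p (Benjamini-Hochberg) under 0.05 and a difference of at least 1 on that scale, which understates the change of low genes. The filter passed 21 of the 80 members, and a member that passed only through the line where it is high had to differ. Against MRC5, 14 members were called in DMS153 (4 higher, 10 lower) beside 50.4% of all tested genes, 34.0% higher and 16.4% lower. In H209, 14 were called (5 higher, 9 lower) beside 47.9% of all tested genes, 33.0% higher and 14.9% lower. Between the carcinoma lines, 6 were called, 2 higher and 4 lower in DMS153, beside 27.1% of all tested genes (13.8% higher, 13.4% lower). The median log2 difference of the tested members was -0.72 in DMS153 and -0.80 in H209 against MRC5, where all tested genes had 0.44 and 0.46, and -0.03 between the carcinoma lines, where all tested genes had -0.04. The libraries of the lines compared did not overlap for any called member, which was also so for 99.4%, 9137 of 9139 and 99.3% of all called genes and 87.3%, 88.1% and 82.3% of all tested genes in these comparisons. Under quantile normalization the splits became 2 higher and 13 lower in DMS153 against MRC5, 4 higher and 12 lower in H209 against MRC5, and 1 higher and 4 lower in DMS153 against H209. Both comparisons with MRC5 use the same MRC5 libraries, so the lines' values are set side by side and not counted as separate support.

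**Figure D2:**
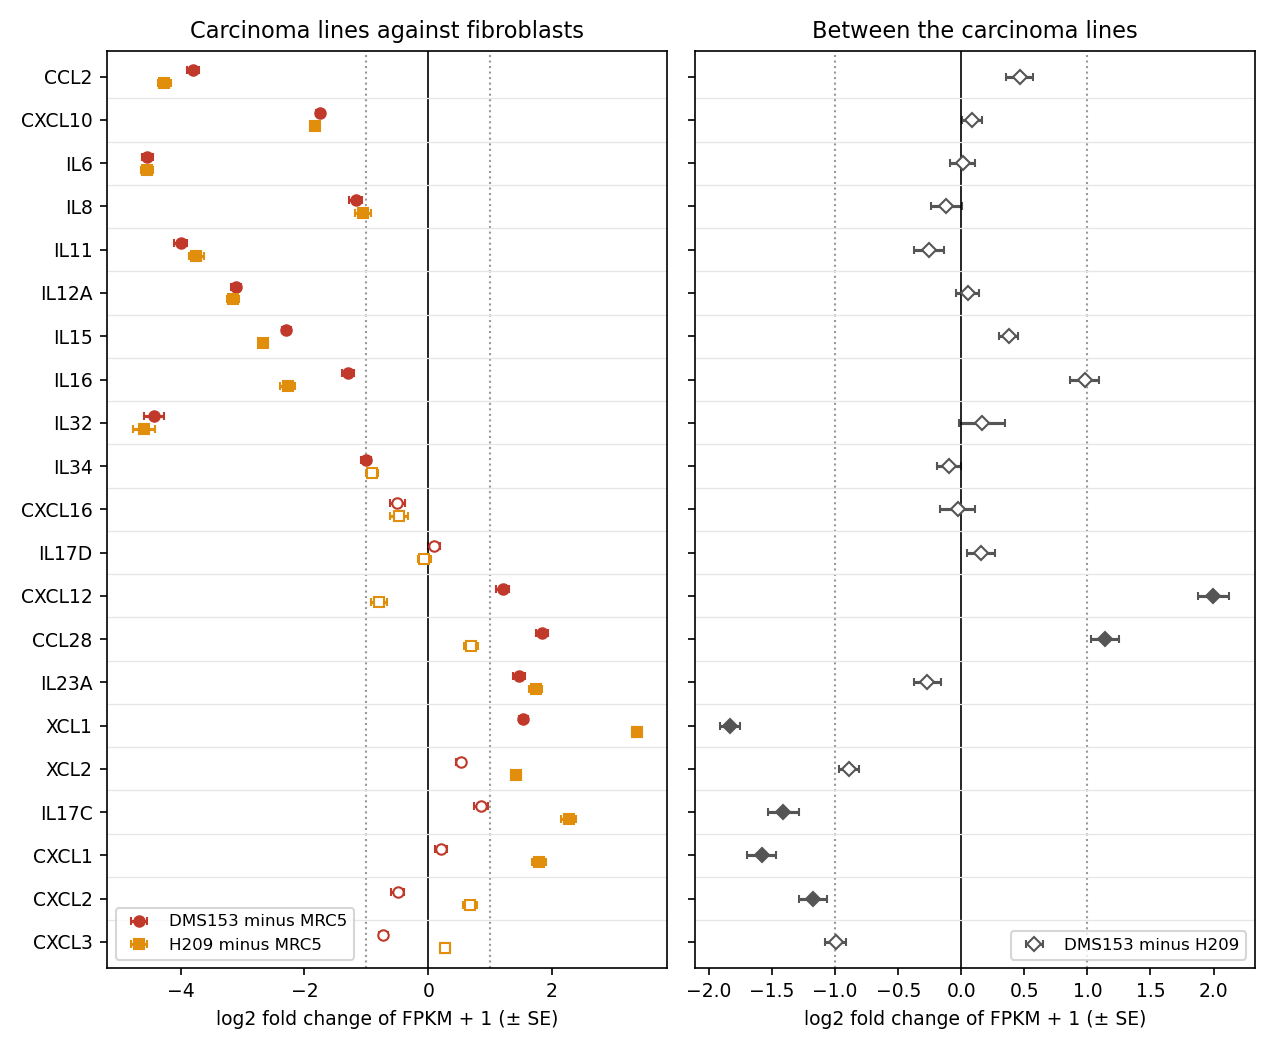
Difference on the log2(FPKM + 1) scale with its standard error for the tested members in DMS153 and H209 against MRC5 and in DMS153 against H209, with filled points for called differences and dotted lines at -1 and 1. IL6 lies at -4.54 in DMS153 and IL32 at -4.59 in H209, and XCL1, IL17C and IL23A lie to the right of 0 in both carcinoma lines.

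The fibroblast ligands were CCL2 and a group of interleukins. Lower in both carcinoma lines than in MRC5 were 9 members: CCL2, CXCL10, IL6, IL8, IL11, IL12A, IL15, IL16 and IL32, beside 11.4% of all tested genes. Higher in both were 2, IL23A and XCL1, beside 21.3%. Without MRC5, CXCL10, IL6, IL8, IL11, IL12A, IL15 and IL32 would not have passed the filter, nor would IL23A and XCL1 without the carcinoma lines. Their direction was thus largely set by the filter, and neither these counts nor their adjusted p below are support for it. Likewise, IL34 would not have passed without MRC5, CXCL1, CXCL2, CXCL3, IL17C and XCL2 without H209, or CXCL12 and CCL28 without DMS153. In comparisons with that line, the adjusted p of these members are not support either. CCL2, which draws monocytes, lies at chr17:32582304-32584222 in hg19, and its levels were 38.5, 39.4 and 39.2 FPKM in MRC5, 1.52, 2.08 and 2.04 in DMS153, and 0.948 and 1.22 in H209. The difference was -3.80 ± 0.10 (SE, adjusted p = 6.1e-10) in DMS153 and -4.27 ± 0.11 (adjusted p = 9.47e-10) in H209, so a gene expressed in all lines was 20.8 times and 36.0 times as abundant in the fibroblasts by the ratio of means. CXCL10, an interferon-responsive chemokine for T cells, stood at 2.90, 2.68 and 2.67 FPKM in MRC5 and at no more than 0.170 in any carcinoma library, with differences of -1.75 ± 0.07 and -1.83 ± 0.08 (adjusted p = 1.08e-08 and 2.22e-08). CXCL10 lies wholly within the listed locus of ART3, whose mean did not exceed 0.255 FPKM in any line.

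IL6 and IL11 encode the cytokines that signal through IL6ST. IL6 (chr7:22765503-22771621) was at 23.7, 25.7 and 24.6 FPKM in MRC5, at 0.0667, 0.199 and 0.0560 in DMS153, and at 0.0216 and 0.180 in H209. The differences were -4.54 ± 0.09 and -4.55 ± 0.10 (adjusted p = 1.3e-10 and 4.21e-10), the greatest among the tested members in DMS153 and next to that of IL32 in H209. IL11 (chr19:55875757-55881831), known for its part in fibrosis, stood at 17.5, 21.2 and 20.9 FPKM in MRC5, against 0.431, 0.248 and 0.236 in DMS153 and 0.454 and 0.658 in H209. Its differences were -4.00 ± 0.10 and -3.74 ± 0.12 (adjusted p = 7.84e-10 and 3.56e-09). Receptor chains of these cytokines were higher in the fibroblasts too. IL6ST, the shared chain, was at 524, 340 and 520 FPKM in MRC5, 53.2, 44.4 and 59.3 in DMS153, and 17.1 and 17.3 in H209, and fell by 3.10 and 4.64 against MRC5 (adjusted p = 1.16e-07 and 1.99e-08). IL6R was at 3.92, 5.11 and 4.62 FPKM in MRC5 and under 1 in every carcinoma library, and was called lower in both lines (-1.72 and -2.35). IL11RA was expressed in all lines, with mean FPKM of 8.68 in MRC5, 6.28 in H209 and 3.13 in DMS153, and was called lower in DMS153 (-1.23) but not in H209 (-0.42, adjusted p = 0.0417).

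IL32 (chr16:3115298-3131908), an intracellular and secreted inducer of other cytokines, was the leading interleukin of MRC5 at 35.1, 43.4 and 37.3 FPKM. It read 1.13, 0.965 and 0.468 FPKM in DMS153 and 0.416 and 0.884 in H209, with differences of -4.43 ± 0.16 and -4.59 ± 0.18 (adjusted p = 7.24e-09 and 1.62e-08). IL15 (chr4:142557752-142655140), a survival factor for natural killer and memory T cells, was at 5.83, 5.40 and 5.68 FPKM in MRC5, against 0.409, 0.348 and 0.313 in DMS153 and 0.0373 and 0.0552 in H209. The differences were -2.29 ± 0.07 and -2.66 ± 0.08 (adjusted p = 1.82e-09 and 2.08e-09). Its private receptor chain IL15RA, which presents it at the cell surface, was at 12.3, 16.1 and 14.4 FPKM in MRC5 and at most 0.212 in a carcinoma library. IL16, a chemoattractant for CD4+ cells, was lowest in H209, at 0.183 and 0.0104 FPKM, with 1.15, 0.921 and 1.41 in DMS153 and 4.32, 4.04 and 4.5 in MRC5. Against MRC5 the differences were -1.30 ± 0.10 and -2.27 ± 0.12 (adjusted p = 1.81e-06 and 9.05e-08), and DMS153 and H209 differed by 0.98, just under the minimum for a call (adjusted p = 5.81e-05). DMS153 minus H209 was called under TPM scaling (1.03), a pseudocount of 0.1 (2.82) and without DMS153 replicate 2 (1.06), and read 1.09 without H209 replicate 1. STARD5, which overlaps IL16 over 3711 bases, had means of 2.11, 0.290 and 2.95 FPKM in DMS153, H209 and MRC5, also lowest in H209, and whether reads were shared was not tested.

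Subunits of the heterodimeric interleukins differed between the lines. IL12A (chr3:159706537-159713806) encodes the chain that makes interleukin 12 with IL12B and interleukin 35 with EBI3. It was at 8.62, 7.57 and 7.53 FPKM in MRC5, at 0.109 in DMS153 replicate 1, and listed at 0 in the other DMS153 libraries and in both H209 libraries, and it was called lower in both lines (adjusted p = 7.72e-10 and 2.07e-09). IL23A (chr12:56732663-56734193), the chain that makes interleukin 23 with IL12B, showed the reverse order. It was at 4.10 and 4.34 FPKM in H209, 3.50, 2.95 and 3.56 in DMS153, and 0.536, 0.726 and 0.455 in MRC5. It was higher by 1.47 ± 0.09 in DMS153 and 1.73 ± 0.10 in H209 (adjusted p = 3.55e-07 and 2.87e-07), although in DMS153 and in H209 the difference dropped to 0.62 and 0.95 under quantile normalization. IL12B itself did not exceed 0.0380 FPKM in any library, and IL23R did not exceed 0.00143. EBI3 was at 1.30, 1.64 and 1.77 FPKM in MRC5 and at most 0.139 elsewhere, and was called lower in both carcinoma lines.

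IL8 and IL34 were the weakest of the fibroblast group. IL8 (chr4:74606223-74609433), the neutrophil attractant, was at 2.56, 2.52 and 3.05 FPKM in MRC5, 0.501, 0.599 and 0.839 in DMS153, and 0.970 and 0.607 in H209. The differences were -1.17 ± 0.11 and -1.06 ± 0.13 (adjusted p = 6.53e-06 and 3.52e-05). The call in H209 fell under the minimum without H209 replicate 2 (-0.91), without MRC5 replicate 3 (-0.99) or with the replicate number as a block (-0.98). IL34, a ligand of the macrophage growth factor receptor CSF1R, was at 1.62, 1.42 and 1.63 FPKM in MRC5, 0.205, 0.270 and 0.349 in DMS153, and 0.254 and 0.484 in H209. It was called in DMS153 at -1.0 ± 0.09 (adjusted p = 3.16e-06), but not without DMS153 replicate 1 (-0.96), MRC5 replicate 1 (-0.99) or MRC5 replicate 3 (-0.98), and in H209 it read -0.90 ± 0.10 and was not called. The H209 difference was called under TPM scaling (-1.07), median ratio scaling (-1.24), quantile normalization (-1.45), a pseudocount of 0.1 (-1.86) and without H209 replicate 2 (-1.03).

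The XC chemokines were listed at 0 in the fibroblasts and were highest in H209. XCL1 (chr1:168545711-168551315), which draws cross-presenting dendritic cells, was at 8.92 and 9.81 FPKM in H209, 1.91, 1.97 and 1.83 in DMS153, and listed at 0 in all 3 MRC5 libraries. It was called higher in both carcinoma lines than in MRC5, and H209 was 4.92 times DMS153 by the ratio of means, a difference of -1.83 ± 0.08 for DMS153 minus H209 (adjusted p = 8.84e-08). XCL2 (chr1:168510003-168513235), its near copy, followed the same order at 1.66 and 1.67 FPKM in H209, 0.470, 0.540 and 0.313 in DMS153, and 0 in MRC5. It was called higher in H209 against MRC5 and not in DMS153 (0.52), and the DMS153 minus H209 difference of -0.89 was not called (adjusted p = 1.2e-05). With a pseudocount of 0.1 both of these were called, at 2.41 and -1.73, and DMS153 minus H209 also under TPM scaling (-1.45). Reads of these copies could be split between them, and each overlaps an antisense or other listed gene with the same order of means, RP4-738P11.4 at 0.480, 2.12 and 0 FPKM and RP4-738P11.3 at 0.561, 3.52 and 0.0214 in DMS153, H209 and MRC5. The receptor XCR1 did not exceed 0.0171 FPKM in any library.

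CXCL1, CXCL2 and CXCL3, which draw neutrophils, passed the expression mark in H209 only, at low levels. CXCL1 (chr4:74735110-74736959) was at 2.96 and 2.6 FPKM in H209, 0.259, 0.135 and 0.399 in DMS153, and 0.214, 0.0719 and 0 in MRC5, and it was called higher in H209 than in MRC5 (1.79 ± 0.12, adjusted p = 4.73e-07) and lower in DMS153 than in H209 (-1.58 ± 0.12, adjusted p = 2.53e-06). CXCL2 (chr4:74962752-74965010) was at 1.86 and 1.33 FPKM in H209, 0.120, 0.0853 and 0.229 in DMS153, and 0.490, 0.630 and 0.724 in MRC5. Of its differences, the one between DMS153 and H209 was called (-1.18 ± 0.11, adjusted p = 1.33e-05), though not under median ratio scaling (-0.99), and H209 minus MRC5 read 0.68 and was not called. H209 minus MRC5 was called under TPM scaling (1.004) and a pseudocount of 0.1 (1.24). CXCL3 (chr4:74902306-74904524) was at 1.20 and 1.11 FPKM in H209, 0.0721, 0.100 and 0.0655 in DMS153, and 0.628, 0.906 and 0.825 in MRC5. Its DMS153 minus H209 difference of -1.0 ± 0.08 stood just under the minimum and was not called (adjusted p = 6.59e-06), nor was H209 minus MRC5 at 0.27. DMS153 minus H209 was called under TPM scaling (-1.54), a pseudocount of 0.1 (-2.81), a replicate block (-1.001) and without DMS153 replicate 2 (-1.01). It read -1.03 without H209 replicate 2. DMS153 minus MRC5 was not called for CXCL2 (-0.50) or CXCL3 (-0.72). Both were called under quantile normalization (-1.12 and -1.30) and a pseudocount of 0.1 (-1.58 and -2.30). As deposited, all 3 genes were highest in H209, and CXCL2 and CXCL3 were lowest in DMS153, but H209 minus MRC5 turned to -0.11 for CXCL2 and -0.50 for CXCL3 under quantile normalization and to -0.097 for CXCL3 under median ratio scaling. IL8, in the same cluster and with the same motif before its start, was highest in MRC5. Sequence shared among CXCL1, CXCL2 and CXCL3 makes the split of reads between them uncertain. CXCR2, their receptor, did not exceed 0.0232 FPKM in any library.

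IL17C and IL17D are members of the interleukin 17 family, of which IL17C is an epithelial product. IL17C (chr16:88704999-88706881) was at 3.97 and 4.17 FPKM in H209, 0.777, 1.27 and 0.714 in DMS153, and 0.106, 0 and 0.0563 in MRC5. It was higher in H209 than in MRC5 (2.27 ± 0.12, adjusted p = 1.37e-07) and lower in DMS153 than in H209 (-1.41 ± 0.12, adjusted p = 7.56e-06), and DMS153 minus MRC5 read 0.85 and was not called. With a pseudocount of 0.1, IL17C was called higher in DMS153 than in MRC5 (2.75). Its receptor chain IL17RE had the same order, at 6.10 and 7.0 FPKM in H209, 2.58, 3.00 and 2.87 in DMS153 and 0.748, 1.07 and 1.04 in MRC5, and was called higher in H209 (1.95, adjusted p = 1.51e-07). IL17RA, the common chain, was expressed in all lines at means of 4.46, 5.06 and 6.43 FPKM in DMS153, H209 and MRC5. IL17D (chr13:21276266-21297237) differed little between the lines as deposited: 7.44, 6.19 and 6.25 FPKM in DMS153, 5.72 and 5.95 in H209, and 5.44, 6.87 and 6.14 in MRC5. The DMS153 and H209 values overlapped those of MRC5, its differences ran from -0.06 to 0.15, and no adjusted p fell below 0.231. Against MRC5, DMS153 read -0.29, -0.46 and -0.42 under TPM scaling, median ratio scaling and quantile normalization. H209 read 0.14 against MRC5 under TPM scaling. Median ratio scaling divides H209 values by 1.29 to 1.30 and MRC5 values by 0.762 to 0.774, so H209 lies further below MRC5 there than as deposited. AL161772.1, which overlaps IL17D over 81 bases, had a mean of 2.98 FPKM in DMS153.

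CXCL12 and CCL28 were the members called higher in DMS153 than in H209. CXCL12 (chr10:44793038-44881941), the stromal ligand of CXCR4 and ACKR3, was at 2.76, 3.99 and 2.99 FPKM in DMS153, 0.0574 and 0.0516 in H209, and 0.812, 0.717 and 0.985 in MRC5. DMS153 was higher than H209 by 2.00 ± 0.13 (adjusted p = 9.5e-07) and higher than MRC5 by 1.20 ± 0.11 (adjusted p = 5.67e-06), the latter not called under median ratio scaling (0.83) or quantile normalization (0.39). H209 read -0.80 ± 0.13 against MRC5 and was not called, but it was under TPM scaling (-1.10), median ratio scaling (-1.0), quantile normalization (-1.28) and a pseudocount of 0.1 (-2.59). CCL28 (chr5:43376747-43412493), a mucosal chemokine, was at 3.07, 2.18 and 2.64 FPKM in DMS153, 0.548 and 0.740 in H209, and at most 0.0284 in MRC5. It was higher in DMS153 than in MRC5 by 1.83 ± 0.10 (adjusted p = 1.05e-07) and than in H209 by 1.14 ± 0.11 (adjusted p = 1.55e-05), the latter not called under TPM scaling (0.91) or quantile normalization (0.96). For CCL28, H209 minus MRC5 read 0.70 ± 0.11 (adjusted p = 0.000265) and was not called. It was called under TPM scaling (1.12) and a pseudocount of 0.1 (2.71). Its receptor CCR10 stood at 1.48, 1.51 and 2.05 FPKM in DMS153 and under 0.5 in every other library, with differences of 0.87 and 0.93 that were not called.

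CXCL16, a scavenging and T cell attracting chemokine, was expressed in all lines. It was at 1.24, 1.58 and 1.20 FPKM in DMS153, 1.52 and 1.25 in H209, and 1.95, 2.96 and 2.06 in MRC5. All carcinoma libraries lay below those of MRC5, but the differences of -0.50 and -0.47 were under the minimum (adjusted p = 0.00446 and 0.0116). Under quantile normalization they read -1.32 and -1.18 and were called. CXCL14 was expressed in H209 by its mean alone, 1.11 ± 0.607 FPKM from 1.54 and 0.679, and did not enter the test. It was at most 0.120 FPKM in the other lines.

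Receptors of these ligands were read from a fixed list. Counts called in each list, here and below, stand beside the shares of all tested genes. Some listed genes passed the filter only through the lines where they were high, such as CXCR4 in the carcinoma lines, OSMR in MRC5 and TNF in H209. Such genes had to differ, so their adjusted p, here and below, are not support. Against MRC5, 34.0% of all tested genes were higher and 16.4% lower in DMS153, and 33.0% and 14.9% in H209. Between the carcinoma lines, 13.8% were higher and 13.4% lower in DMS153. Of 23 listed chemokine receptor genes, 4 were tested: 3 were called higher and none lower in DMS153 against MRC5, 2 higher and none lower in H209, and 1 was higher in DMS153 than in H209. CXCR4 was at 22.7, 26.2 and 21.5 FPKM in DMS153, 17.9 and 16.2 in H209, and at most 0.00906 in MRC5, higher by 4.60 ± 0.09 and 4.17 ± 0.10 (adjusted p = 1.07e-10 and 6.34e-10). ACKR3, the scavenger that also binds CXCL12, was at 23.3, 24.4 and 25.7 FPKM in DMS153, 11.5 and 13.5 in H209, and 0.508, 1.04 and 1.36 in MRC5, higher by 3.71 and 2.79. As deposited, the ligand CXCL12 passed the expression mark in DMS153 only, and both of its receptors did so in both carcinoma lines. In MRC5, however, CXCL12 and ACKR3 lay just under the mark, with means of 0.838 and 0.971 FPKM. CCR7 was at 1.82, 1.90 and 1.97 FPKM in DMS153 and under 0.5 elsewhere, higher in DMS153 than in MRC5 (1.10) and H209 (1.49). CCR2, the receptor of CCL2, was listed at 0 in every library.

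Interleukin receptors were expressed more widely, 17 of the 42 listed loci in DMS153, 13 in H209 and 18 in MRC5. Of 26 tested, 7 were higher and 12 lower in DMS153 than in MRC5, 6 higher and 11 lower in H209, and 4 higher and 1 lower in DMS153 than in H209. OSMR, the oncostatin M chain that pairs with IL6ST, fell most in both lines, from 100, 88.8 and 99.9 FPKM in MRC5 to under 0.04 in every carcinoma library (-6.56 and -6.55, adjusted p = 5.5e-12 and 3.24e-11). IL20RA rose most in DMS153, at 9.04, 10.1 and 11.8 FPKM against at most 0.579 in the other lines (3.48 against MRC5 and 2.84 against H209). IL17RB, the receptor of interleukin 25, rose most in H209, at 4.62 and 4.86 FPKM against 0.507, 0.267 and 0.347 in MRC5 (2.07), and was higher still in DMS153 (12.7, 13.8 and 12.8 FPKM). Of 3 tested decoys and antagonists, 2 were higher in each carcinoma line. SIGIRR, which dampens interleukin 1 family signalling, was at 35.6, 42.5 and 38.9 FPKM in DMS153, 86.7 and 77.2 in H209, and 7.62, 9.24 and 8.47 in MRC5 (2.08 and 3.14), and IL13RA2, an interleukin 13 decoy, was lower in H209 (-1.0).

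**Figure D3:**
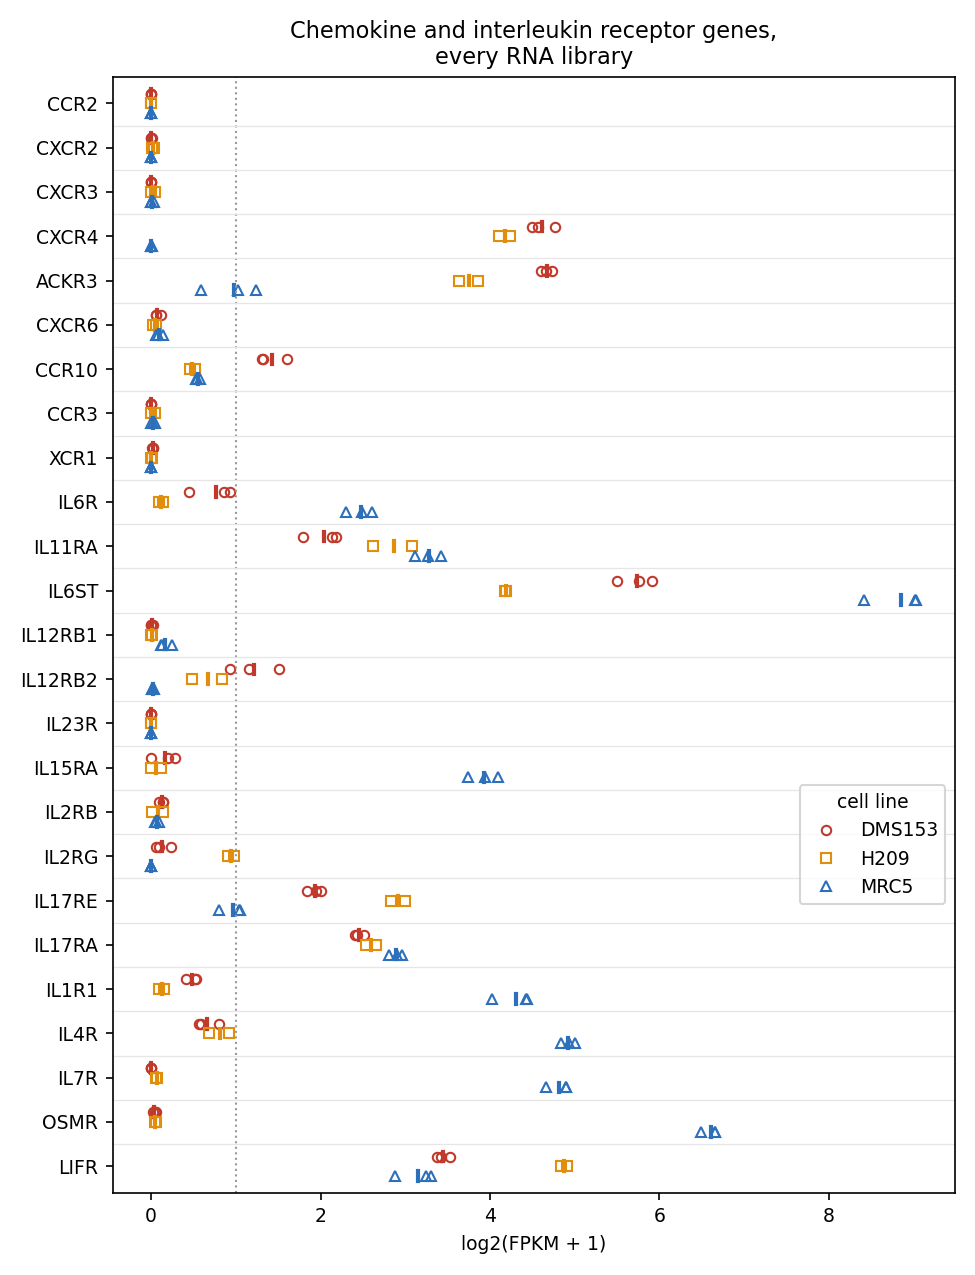
FPKM by library on the log2(FPKM + 1) axis for receptors of the ligand families, with circles for DMS153, squares for H209, triangles for MRC5, short bars at the line means and the dotted line at the value of 1 FPKM. CXCR4 and ACKR3 are high in both carcinoma lines, IL6ST, OSMR and IL15RA in MRC5, and CCR2, XCR1, CXCR2 and IL23R lie at or near 0 in all libraries.

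The signalling genes upstream of many of these ligands moved in both directions. So did all tested genes, with 34.0% higher and 16.4% lower in DMS153 than in MRC5, and 33.0% and 14.9% in H209. Of 30 tested NF-kappaB and Toll-like receptor genes, 5 were higher and 9 lower in DMS153 than in MRC5, 1 higher and 9 lower in H209, and 3 higher and 1 lower in DMS153 than in H209. TNFRSF1A, the main TNF receptor, fell most, from 220, 250 and 228 FPKM in MRC5 to 13.4, 15.2 and 14.6 in DMS153 and 27.5 and 22.3 in H209 (-3.92 and -3.18). TLR4, the receptor for bacterial lipopolysaccharide, rose most in DMS153 (2.07), at 3.40, 2.82 and 3.56 FPKM against at most 0.172 elsewhere, and the adaptor TRAF2 rose most in H209 (1.38). RELA, the main activating subunit, had means of 50.5, 54.2 and 49.4 FPKM in DMS153, H209 and MRC5 and was not called. The C/EBP and AP-1 factors counted 1 higher and 5 lower of 11 tested in each carcinoma line, and 1 higher and 3 lower in DMS153 against H209. FOSL1, an AP-1 subunit, was at 68.5, 82.8 and 77.9 FPKM in MRC5 and at most 0.309 in a carcinoma library (-6.08 and -5.94), whereas FOS rose in DMS153 (2.74) and JUND in H209 (1.65).

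Of 12 tested JAK-STAT genes, 1 was higher and 4 lower in DMS153, 3 higher and 4 lower in H209, and 4 lower in DMS153 than in H209. STAT5A rose most in DMS153 (1.56), STAT5B in H209 (1.57), and SOCS2 showed the greatest difference between the carcinoma lines (-1.26). Of 12 other secreted cytokines, 1 was higher and 6 lower in DMS153, 3 higher and 7 lower in H209, and 5 higher and 2 lower in DMS153 than in H209. TSLP, an epithelial and stromal alarmin, fell most in DMS153, from 16.7, 13.3 and 14.9 FPKM in MRC5 to at most 0.111 (-3.89), and GDF15, a stress-induced TGF-beta relative, fell most in H209 (-5.48) and differed most between the carcinoma lines (2.43). TNFSF10, also called TRAIL, rose most in DMS153 (2.70), and LTB, a lymphotoxin subunit, rose most in H209 (2.41), at 4.63 and 4.22 FPKM against at most 0.0448 in MRC5. TNF, an inflammatory cytokine, was at 1.82 and 1.42 FPKM in H209, at most 0.216 in DMS153 and at most 0.00114 in MRC5 (1.39 for H209 against MRC5, adjusted p = 5.76e-07). Among 5 tested inflammasome genes, 2 were lower in each carcinoma line and none higher. CASP1, the protease that matures interleukins 1 beta and 18, was at 52.0, 58.2 and 53.3 FPKM in MRC5 and at most 0.0952 elsewhere (-5.72 and -5.74), and CASP4 was 1.80 higher in DMS153 than in H209.

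Many ligand genes lie side by side. The chromosome 4 cluster from IL8 to CXCL2 (hg19 chr4:74606223-74965010) holds 6 members, of which none was expressed in DMS153, 3 in H209 and 1 in MRC5. CXCL9, CXCL10 and CXCL11 (chr4:76922428-76962568) held 1 expressed gene, in MRC5 only, and the CCL2 cluster (chr17:32582304-32690250) held CCL2 as its only expressed gene among 6 in each line. The 8 members of the CCL5 to CCL4 cluster on chromosome 17 and the 6 of the interleukin 1 cluster on chromosome 2 were under the mark in all lines. Of XCL1 and XCL2, 1 was expressed in DMS153, both in H209 and none in MRC5.

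Hi-C domains, stretches of chromosome within which contacts are frequent, were called by the authors from 1 library per line, so the following is a description with no test. A domain covered the midpoint of 52 of the 80 members in DMS153 (65.0%), 42 in H209 (52.5%) and 50 in MRC5 (62.5%), against 51.0%, 50.6% and 49.6% of all tested genes. Both ends of that domain lay within 40 kb of each other in DMS153 and MRC5 for 30 members (37.5%, against 24.9% of all tested genes), in H209 and MRC5 for 23 (28.75%, against 25.9%) and in DMS153 and H209 for 30 (37.5%, against 31.0%). The members here include 59 that did not pass the filter for testing, while the comparison shares cover tested genes only. Mostly low genes are thus set beside expressed ones, and the shares are not of like sets. Neighbouring members often share a domain, so these counts are not of independent genes. The cluster from IL8 to CXCL2 lay whole within a 500 kb domain (chr4:74520000-75019998) with the same ends in DMS153 and MRC5. In H209, where CXCL1, CXCL2 and CXCL3 were expressed, no domain was listed over it, and the neighbouring domains ended at 74519998 and began at 75040000. The CXCL9 to CXCL11 cluster lay in a 100 kb domain with the same ends in all lines. XCL1 and XCL2 lay in a 160 kb domain in DMS153 and MRC5 (chr1:168400000-168559998) and in a 1040 kb domain in H209 (chr1:168300000-169339998), the line with the highest XCL1. The CCL2 cluster had the same domain in H209 and MRC5 (chr17:32520000-32699998) and nearly the same in DMS153, although CCL2 itself was called lower in H209 than in MRC5. IL6 lay in a 200 kb domain in DMS153 and in a 540 kb domain with the same ends in H209, where it was near 0, and in MRC5, where it was high. IL12A had the same domain in all lines. Domain ends thus matched both where levels differed and where they did not, and whether ends and levels are related was not tested.

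**Figure D4:**
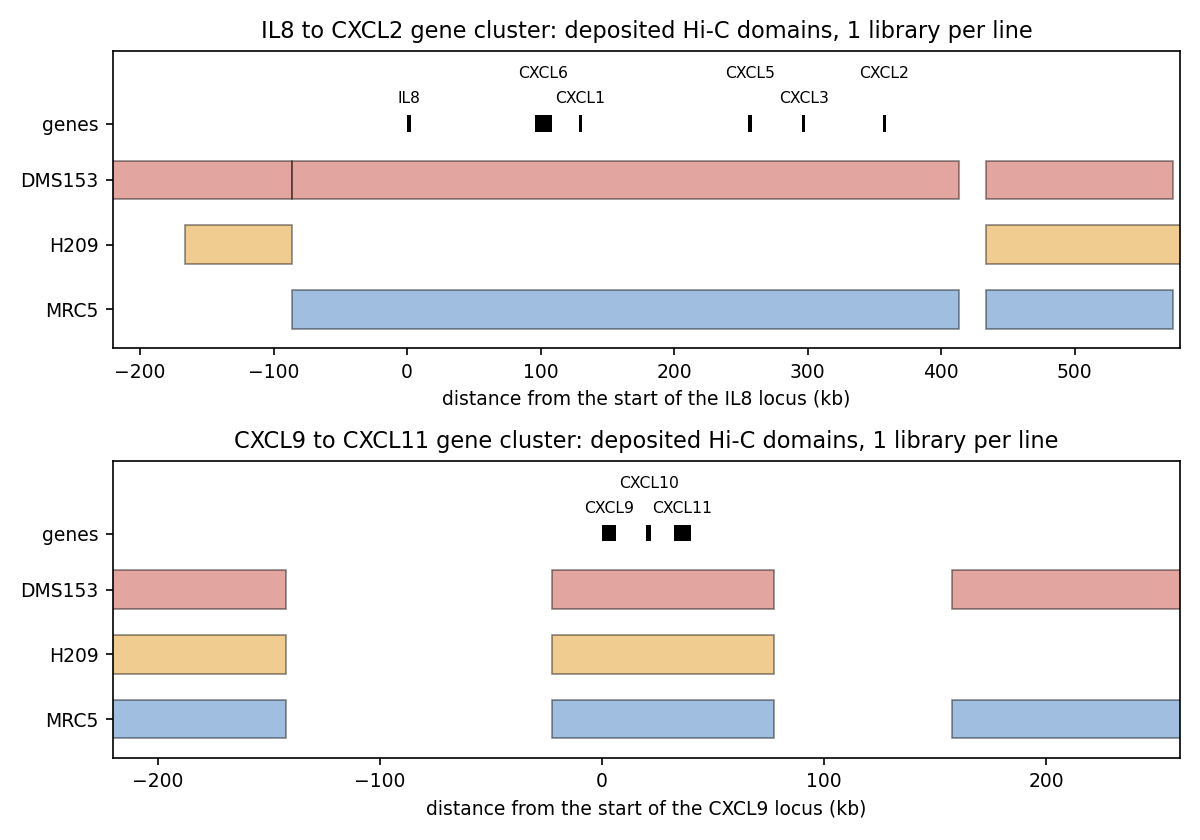
Position of the listed Hi-C domains (bars) of DMS153, H209 and MRC5 around the IL8 to CXCL2 and the CXCL9 to CXCL11 gene clusters, in kb from the start of the leftmost gene of each, with the member genes as black marks. DMS153 and MRC5 share a 500 kb domain over the IL8 to CXCL2 cluster, for which no domain is listed in H209, and all lines share the 100 kb domain over CXCL9 to CXCL11.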

How the data were processed

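RNA levels were read from the FPKM values that the authors deposited for each of 8 RNA libraries, with confidence bounds per the file headers. TopHat2 2.1.0, Cufflinks 2.2.0, Bowtie2 and HOMER 4.8 and the build hg19 are named in the submitters' processing notes, while RNA selection, strand and depth are stated in none of the sources used here, so antisense and overlapping genes can share reads. The deposited Hi-C domain lists carry a score per domain, used only to keep domains at or above the median in an alternative. Libraries were grouped by the labelled cell line, and titles that write DM153 carry the cell line name DMS153.

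A pseudocount of 1 was added, and limma 3.58.1 (R 4.3.3) was fitted over all 8 libraries with a trended variance and two-sided moderated tests, on genes with at least 1 FPKM in 2 libraries. Benjamini-Hochberg adjustment covered all 19066 genes. The script was tested on simulated data. Gene clusters join members less than 1000 kb apart. A member lies in a domain when its midpoint does. Promoter sequences are RefSeq's for GRCh38.p14, and 58 of the 80 members matched by symbol.

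Members and gene lists were chosen with earlier results of these data known. All expressed or called members are named, with the called gene of greatest rise and fall from each list and comparison, except 1 gene that is not reported here. Receptors of expressed ligands, IL12B, EBI3, TNF, RELA and PTPRC were named in addition after their values were seen. Alternatives were other pseudocounts, filters and scalings, fits of 2 lines, a replicate block and leaving out each library.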

Additional observations from a re-analysis of the deposited data

Results flagged for a closer look

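The carcinoma lines differed from each other, by limma's adjusted p and the minimum difference, in 6 ligands. On the log2(FPKM + 1) scale, DMS153 minus H209 read 2.00 for CXCL12, 1.14 for CCL28, -1.83 for XCL1, -1.58 for CXCL1, -1.41 for IL17C and -1.18 for CXCL2. Only XCL1 would have passed the filter without the line where it was higher. For the others, the adjusted p is thus not support.

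Several members that were too low to be tested had a signal in a carcinoma line above every MRC5 library, with the deposited lower bound above 0 in each library of that line. In H209 the mean was 1.11 FPKM for CXCL14, 0.828 for CCL20, a chemokine for CCR6-bearing cells, 0.783 for CXCL6, 0.639 for CX3CL1, the membrane-bound chemokine, 0.50 for IL37, 0.446 for IL7, 0.271 for CXCL17, 0.211 for the alarmin IL33, 0.197 for CXCL13 and 0.124 for CXCL5. In DMS153 the mean was 0.479 FPKM for CXCL6, 0.399 for CXCL13 and 0.225 for IL33. Untested members above every carcinoma library in MRC5 were not searched for, so the list does not show which way low members lean. IL1A, for instance, was at 0.150, 0.0558 and 0.0709 FPKM in MRC5 and at most 0.0467 in a carcinoma library. None of these values was tested, and levels this low rest on few fragments.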

How the results depend on the processing

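Of 651 alternative values for single members, 579 kept their direction and their side of the threshold, 34 became called, 13 lost a call and 25 changed sign, none of these a called difference. A filter of 5 FPKM in 2 libraries left 7, 7 and 1 called members (DMS153 against MRC5, then H209 against MRC5, then DMS153 against H209), since fewer members were tested. For DMS153 against H209, pseudocounts of 0.1 and 0.01 gave 10 each and no minimum difference gave 12. Without 1 library at a time, 13 to 14, 13 to 14 and 6 to 8 were called. Expressed members were 4 in DMS153 and 5 in H209 at a mean of 2 FPKM, 18 in H209 at 0.5 FPKM and 18 in H209 after TPM scaling. Shared domain ends were 18, 12 and 15 among domains scoring at or above the median. Signs that changed were, against MRC5 in DMS153, CXCL1 under quantile normalization (-0.33) and IL17D under TPM scaling (-0.29), median ratio scaling (-0.46) and quantile normalization (-0.42), and, in H209, CXCL2 (-0.11) and CXCL3 (-0.50) under quantile normalization, CXCL3 under median ratio scaling (-0.097) and IL17D under TPM scaling (0.14). For DMS153 against H209 they were, under TPM scaling, IL17D (-0.43), IL32 (-0.13) and IL6 (-0.067), under quantile normalization CXCL10 (-0.029), IL32 (-0.028) and IL6 (-0.085), and under median ratio scaling CXCL16 (0.038). Leaving out 1 library at a time also turned signs: the range was -0.13 to 0.011 for IL17D in H209 against MRC5, and in DMS153 against H209 the ranges were -0.11 to 0.054 for CXCL16, -0.042 to 0.37 for IL32, -0.22 to 0.022 for IL34, -0.094 to 0.11 for IL6 and -0.26 to 0.029 for IL8. The cause was not tested.

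The labels give libraries of different lines the same numbers without saying what they share. Deviations of same-numbered libraries correlated at -0.012 to 0.12, not above 0.1 in every pair, so they were not treated as paired, although 6 of 7 correlated best with their own number, a hint from the data only. With the replicate number as a block, 14, 13 and 7 members were called in the same order of comparisons, IL8 in H209 against MRC5 read -0.98 and was not called, and CXCL16 in DMS153 against H209 read 0.020. The deposited FPKM give no counts, so differences among members under 1 FPKM were not detectable with known precision.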
